A study of Callosobruchus maculatus with 24 samples.

Results

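In 86 genes of the seed beetle Callosobruchus maculatus the sex with the higher transcript level was not the same in the abdomen as in the combined head and thorax. They were chosen from the values described here, among 29812 genes listed. A gene's level was its CPM, that is, its estimated read count relative to the total count of the library. The median CPM was taken over the 6 libraries of each sex and body part, and 8894 genes reached 5 CPM in the higher sex of both body parts. A member was at least 1.5-fold higher in one sex in the abdomen and at least 1.5-fold higher in the other sex in the head and thorax. In 48 genes, called abdomen-female genes here, females were higher in the abdomen and males in the head and thorax. In 38 genes, called abdomen-male genes, males were higher in the abdomen and females in the head and thorax. The 48 were 0.540% and the 38 were 0.427% of the genes that reached the level minimum.

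RNA was sequenced from abdomens and from heads with thoraces of female and male beetles of the South India strain, either virgin or mated. The 8 groups of sex, mating state and body part had 3 replicate libraries each, 24 in all. The labels do not say how many beetles went into a library, how long after mating they were frozen, how old they were, or whether an abdomen and a head and thorax came from the same beetles. They also do not say whether replicates were raised separately, so p-values reflect how far these libraries varied, possibly for technical reasons alone.

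Sex-biased expression is a difference between females and males in the amount of a gene's RNA, and it is usually much stronger in tissues that hold the reproductive organs than elsewhere. In a beetle the abdomen holds the gonads, the accessory glands and most of the fat body and gut, whereas the head and thorax hold the brain, the sense organs and the flight and leg muscles. A gene used by several organs can thus have a sex difference in each that differs in size or direction. The gene IDs in the files come without names, so the members are described by ID, with no function given.

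Each library held between 7805440 and 10171662 counts, so 5 CPM stood for 39.0 to 50.9 counts. Of the head and thorax libraries, 2 stood apart. The 392 genes almost limited to females in the abdomen, counted without the most abundant of them, summed to 14031 CPM in replicate 3 of virgin female heads and thoraces and to between 4999.7 and 6169 CPM in the other 5 female head and thorax libraries. The 949 genes almost limited to males in the abdomen summed to 11148 CPM in replicate 1 of virgin male heads and thoraces and to between 3572 and 5286 CPM in the other 5. Of the abdomen libraries, virgin female replicate 2 differed most from its replicates, with a chi-square per degree of freedom of 32.1 against replicate 1 and 31.1 against replicate 3, where these 2 had 10.02 against each other and the other abdomen groups 6.73 to 12.4. Of the members, 3 were in the female-limited list and 2 in the male-limited list. In that virgin male library 2 abdomen-female and 7 abdomen-male genes lay over 3-fold above the median of the other 5 male libraries, and in that virgin female library 4 and 1 did so against the other 5 female libraries. The share of all genes that did so is not given here, so nothing is read from these counts. In TR7035|c2_g4, TR7035|c2_g2, TR23862|c5_g4, TR64909|c6_g5, TR71183|c0_g1 and TR73607|c1_g21 another library of the same sex and body part was higher still. Without both libraries the same rule found 64 abdomen-female genes, 42 of them among the 48, and 47 abdomen-male genes, 33 of them among the 38.

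Reversal was uncommon among genes with a sex difference in both body parts. The fold limit was passed in both body parts by 1966 genes, of which 1279 were higher in females in both and 601 higher in males in both, and the 86 reversed genes were 4.37% of the 1966. With no fold limit, 25.7% of the 8894 genes had opposite directions in the 2 body parts. In whole-body-part RNA, a lower level can come from fewer cells of a type or from less RNA per cell, and these cannot be told apart. The scaling also counts: over the 8894 genes the median log2 difference of females over males was 0.49 for abdomens and 0.05 for heads and thoraces with CPM by total count. TMM scaling, which sets the bulk of genes equal, lowered log2 female over male by a median of 0.33 for abdomens and 0.12 for heads and thoraces, and DESeq2 size factors by 0.50 and 0.08. All 48 and all 38 members kept both of their directions under both of these scalings. The median shifts are smaller than the 1.5-fold limit that members had to pass, so this was largely fixed by the choice and nothing is read from it. The 1.5-fold limit was passed under all 3 scalings by 26 abdomen-female and 25 abdomen-male genes.

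**Figure D1:**
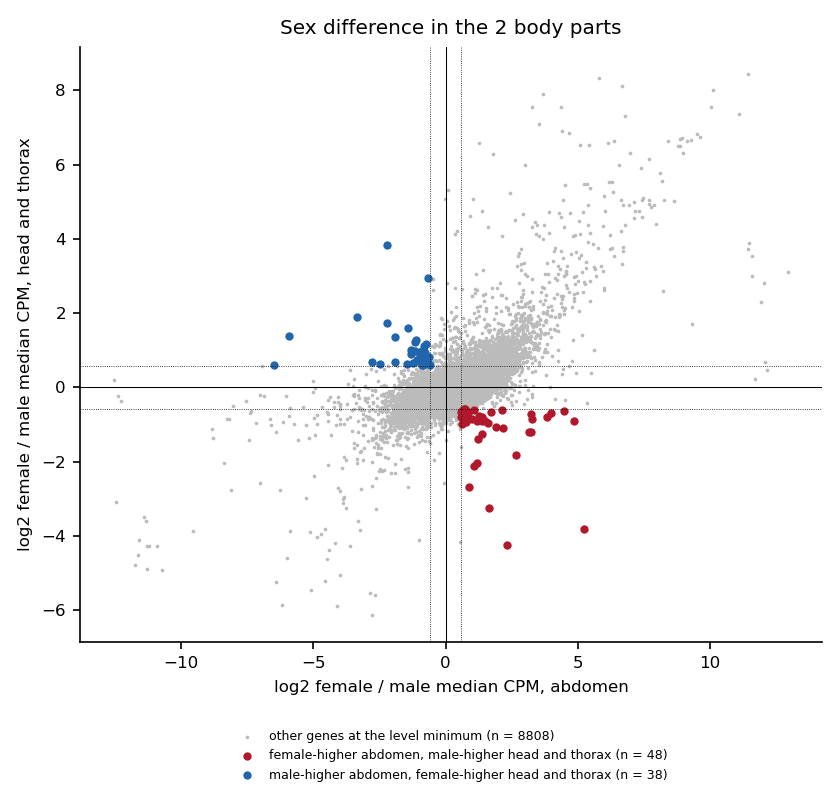
Log2 ratio of female over male median CPM (n = 6 libraries per sex and body part) with abdomens on the horizontal axis and heads and thoraces on the vertical axis, for the 8894 genes at the level minimum. Dotted lines mark the 1.5-fold limit. The 48 abdomen-female genes (red) lie at the lower right and the 38 abdomen-male genes (blue) at the upper left, away from the diagonal cloud of the other genes.

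The libraries of the sexes did not overlap in many members, but in the abdomen this was no more frequent than among the genes at the level minimum. The choice by medians favours a lack of overlap, so nothing is read from it. In the abdomen the 6 female and 6 male libraries did not overlap in 35 of the 48 abdomen-female and 26 of the 38 abdomen-male genes, against 74.2% of the genes at the level minimum. Between heads and thoraces they did not overlap in 30 and 18, against 36.1%. In both body parts at once they did not overlap in 25 abdomen-female and 15 abdomen-male genes, against 30.5%. At the other end, the sexes overlapped in both body parts in 8 abdomen-female and 9 abdomen-male genes. A library at 0 occurred in 6 abdomen-female and 8 abdomen-male genes. The shares of all genes for overlap in both body parts and for a library at 0 are not given here, so nothing is read from these counts.

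Among the 48 abdomen-female genes, the fold between the sexes ran from 1.502 to 37.5 in the abdomen, with a median of 2.28, and from 1.51 to 19.1 in the head and thorax, with a median of 1.78. The larger fold was abdominal in 32 and the other way in 16. Most were small reversals, and 12 were at least 2-fold in both body parts. The highest of the 4 median levels was that of male heads and thoraces in 29 genes and that of female abdomens in 19. Summed over the 48 genes, female abdomens held 2467 to 2709.8 CPM and male abdomens 1029 to 1238 CPM, whereas male heads and thoraces held 5186 to 6294 CPM and female heads and thoraces 2889 to 3386 CPM.

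TR37369|c3_g7 had the strongest reversal of all members that were above 0 in every library. It ran from 10.3 through a median of 11.3 to 13.7 CPM in female abdomens, from 0.104 through 0.235 to 0.550 CPM in male abdomens, from 2.31 through 2.85 to 6.50 CPM in female heads and thoraces, and from 31.7 through 40.3 to 54.9 CPM in male heads and thoraces. The sexes did not overlap in either body part, and the 2 extremes both belonged to males. With the male median, under 3 counts a library, set to 0.3 CPM, the female level was at least 37.5-fold higher in the abdomen, and the male level was 14.2-fold higher in the head and thorax. TR23817|c0_g1 ran from 40.4 through 43.7 to 51.05 CPM in female abdomens and from 4.60 through 6.84 to 8.14 CPM in male abdomens. Heads and thoraces ran from 6.50 through 6.71 to 8.55 CPM in females and from 18.1 through 23.6 to 28.3 CPM in males. Its sexes were apart in both body parts, by 6.385-fold and 3.52-fold, and female heads and thoraces were as low as male abdomens.

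In TR36773|c0_g1 the females hardly differed between body parts and the males carried the reversal. It ran from 17.96 through 21.1 to 23.4 CPM in female abdomens and from 20.8 through 22.9 to 31.6 CPM in female heads and thoraces. Male abdomens ran from 5.602 through 8.13 to 8.75 CPM and male heads and thoraces from 39.5 through 54.5 to 58.7 CPM. The female libraries of the 2 body parts overlapped, whereas the male libraries lay below them in the abdomen and above them in the head and thorax. TR64240|c0_g1 had the same form, with female medians of 85.3 CPM in the abdomen and 85.2 CPM in the head and thorax between male medians of 30.6 and 160.0 CPM. TR36345|c1_g1 instead moved in both sexes, from 18.8 CPM in female abdomens to 5.94 CPM in female heads and thoraces, and from 8.01 to 15.5 CPM in males (medians), and its sexes overlapped in neither body part.

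Genes with a large sex difference in the abdomen often had a modest one in the head and thorax. TR18174|c1_g1 ran from 277 through 417 to 553 CPM in female abdomens and from 44.7 through 46.6 to 70.0 CPM in male abdomens, 8.94-fold apart with no overlap. Its head and thorax values ran from 11.75 through 16.1 to 27.4 CPM in females and from 26.0 through 37.2 to 88.7 CPM in males, 2.31-fold apart, and the sexes overlapped. TR74758|c0_g1 had medians of 53.7 CPM in female and 3.80 CPM in male abdomens, 14.1-fold apart, but 2.88 and 5.05 CPM in the head and thorax. In virgin female head and thorax replicate 3, which stood apart, it was at 12.3 CPM, against a median of 2.73 CPM in the other 5, and this library alone made the sexes overlap there. TR35808|c0_g1 was likewise at 24.9 CPM in that library, against a median of 4.24 CPM in the other 5 and a male median of 17.8 CPM. Whether the excess of female-limited RNA in that library accounts for these values was not tested.

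Abdomen-female genes with high CPM, a value that rises with transcript length as well as abundance, were mostly genes of the head and thorax. TR45359|c8_g6 ran from 1002 through 1068 to 1158 CPM in male and from 620.1 through 653 to 768 CPM in female heads and thoraces. In the abdomen it ran from 296 through 358 to 428 CPM in females and from 179 through 212 to 226 CPM in males. The sexes were apart in both. TR24091|c1_g1 had medians of 132 and 74.7 CPM in female and male abdomens and of 341 and 622 CPM in female and male heads and thoraces, with no overlap, and TR7212|c0_g1 had 169, 111, 231 and 458 CPM in the same order, also with none. TR6136|c0_g2 was higher in the head and thorax by 58.8-fold in females and 189.6-fold in males, with medians of 528 CPM in females and 959 CPM in males. Its abdominal medians were 8.98 CPM in females and 5.055 CPM in males, and 1 male library at 42.6 CPM lay above every female one, so that by means the male abdomen was the higher.

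Some abdomen-female genes varied too much between libraries for the medians to mean much. TR19984|c4_g6 was at 0 in all 6 female head and thorax libraries and at 0 in 5 further libraries spread over the other 3 sex and body part combinations. TR7035|c2_g4 spanned 1.315 to 410.4 CPM in female and 2.69 to 601 CPM in male heads and thoraces. TR7035|c2_g2, whose ID differs only in the last number, spanned 0.584 to 169.6 and 1.10 to 47.1 CPM there. TR61818|c0_g2, TR64909|c6_g5 and TR21236|c1_g5 had 6, 8 and 7 libraries at 0. The sexes overlapped in both body parts in each of these 6 genes.

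**Figure D2:**
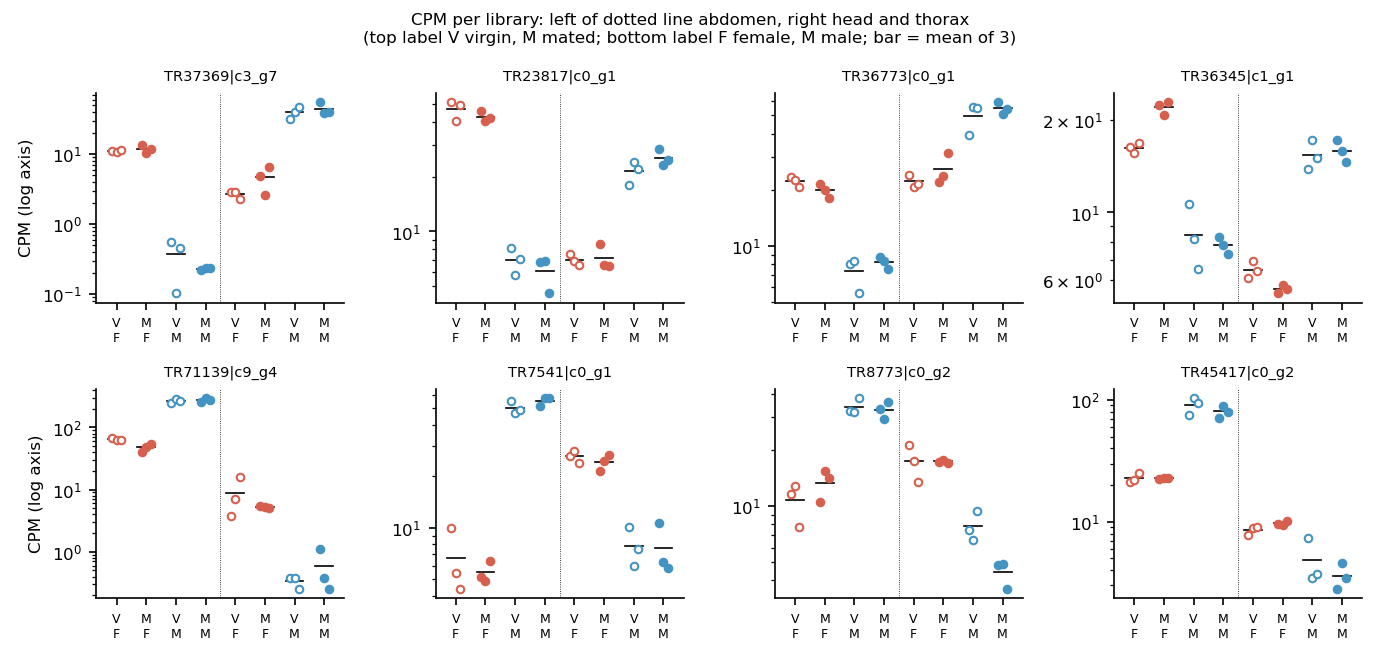
CPM of 8 members in every library on a log axis, with abdomens left and heads and thoraces right of the dotted line. Open points are virgin and filled points mated beetles, red points females and blue points males, and each bar is the mean of 3 libraries. The upper row holds 4 abdomen-female genes and the lower row 4 abdomen-male genes, and in each panel the red and blue points change places across the dotted line.

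Among the 38 abdomen-male genes, the fold between the sexes ran from 1.52 to 90.2 in the abdomen, with a median of 2.04, and from 1.502 to 14.2 in the head and thorax, with a median of 1.84. The larger fold was abdominal in 22 and the other way in 16, and 8 genes were at least 2-fold in both. Male abdomens had the highest of the 4 medians in 27 genes and female heads and thoraces in 11. Summed over the 38 genes, male abdomens held 8992 to 11357 CPM and female abdomens 1063 to 1298 CPM. In male abdomens 71.3% to 75.9% of the sum came from TR73921|c1_g1 and TR14521|c0_g1, described below, whose direction in the head and thorax is the opposite by means, and the other 36 genes summed to 2523 to 2741 CPM. Female heads and thoraces held 1348 to 1545 CPM and male heads and thoraces 775 to 1221 CPM.

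TR71139|c9_g4 had the strongest reversal in this direction. It ran from 247 through 274 to 296 CPM in male abdomens and from 41.0 through 58.6 to 67.4 CPM in female abdomens. In the head and thorax it ran from 3.70 through 5.35 to 15.9 CPM in females and from 0.254 through 0.377 to 1.10 CPM in males. The sexes were apart in both body parts, by 4.68-fold and 14.2-fold, while both sexes were far lower in the head and thorax. The male head and thorax libraries held only 2 to 9 counts each, so the size of the 14.2-fold is uncertain. The 15.9 CPM belonged to virgin female replicate 3, and the other 5 female libraries had a median of 5.24 CPM.

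TR7541|c0_g1 was high in opposite body parts of the sexes. It ran from 46.7 through 53.6 to 57.3 CPM in male abdomens and from 21.5 through 25.5 to 28.1 CPM in female heads and thoraces. It was low in female abdomens, from 4.39 through 5.28 to 10.02 CPM, and in male heads and thoraces, from 5.84 through 6.895 to 10.7 CPM. The sexes did not overlap, at 10.1-fold in the abdomen and 3.70-fold in the head and thorax. TR8773|c0_g2 had the same form at smaller folds, with medians of 32.7 CPM in male and 12.2 CPM in female abdomens and of 17.3 CPM in female and 5.75 CPM in male heads and thoraces. TR45417|c0_g2 was higher in the abdomen in both sexes, with medians of 84.9 CPM in males and 22.6 CPM in females there and of 9.19 CPM in females and 3.58 CPM in males in the head and thorax. Neither TR8773|c0_g2 nor TR45417|c0_g2 overlapped between the sexes in either body part.

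The smaller abdomen-male reversals included several with little spread between libraries. TR51526|c0_g1 ran from 187 through 218 to 242 CPM in male and from 92.4 through 110.3 to 119.9 CPM in female abdomens. Heads and thoraces ran from 310 through 335 to 370.3 CPM in females and from 152 through 175 to 187 CPM in males. The sexes were apart by 1.98-fold and 1.92-fold without overlap. TR40501|c0_g1 had medians of 185 and 95.6 CPM in male and female abdomens and of 62.3 and 34.4 CPM in female and male heads and thoraces, and TR24407|c0_g1 had 358, 181, 185 and 107 CPM in the same order, neither with any overlap.

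Both genes with the largest abdominal folds in this direction rested, in the head and thorax, on medians under 1% of those in male abdomens. TR73921|c1_g1 ran from 3673 through 4654 to 5371 CPM in male and from 37.7 through 51.6 to 63.6 CPM in female abdomens, 90.2-fold apart. Head and thorax values of females ran from 12.9 through 24.1 to 37.3 CPM and those of males from 8.435 through 16.01 to 247 CPM, and the sexes overlapped. The 247 CPM belonged to virgin male replicate 1, the library with the high sum of male-limited genes, whose other 5 male libraries had a median of 13.8 CPM. TR14521|c0_g1 ran from 2505 through 2788 to 3244 CPM in male and from 25.2 through 46.3 to 86.0 CPM in female abdomens, and had 183 CPM in that same library against a median of 4.202 CPM in the other 5. The log2 difference of females over males in the head and thorax was 1.37 for TR14521|c0_g1 and 0.59 for TR73921|c1_g1 by medians, but -1.51 and -1.15 by means. Without both libraries that stood apart it was 1.53 and 0.79 by medians. TR73921|c1_g1 was also higher in males in virgin heads and thoraces alone, at a log2 difference of -0.41. The part of the male-limited RNA in these values was not tested.

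TR53577|c3_g7, TR36871|c0_g1 and TR71183|c0_g1 were also over 3-fold raised in that virgin male library. TR53577|c3_g7 was at 7.39 CPM in it, against a median of 0.925 CPM in the other 5 male and 7.29 CPM in all female head and thorax libraries. TR71183|c0_g1 was at 37.9 CPM in it, but at 0 in 4 head and thorax libraries, and reached 48.3 CPM in a female and 54.5 CPM in another male one. In virgin heads and thoraces alone males were higher in this gene, at a log2 difference of females over males of -0.52. TR73607|c1_g21 had 8 libraries at 0, and TR9033|c4_g8 and TR8743|c0_g1 had 4 each, with the sexes overlapping in both body parts.

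The fold limit cut through a continuum of values. Just inside it, TR39167|c4_g1 was at 1.502-fold in the abdomen and 1.73-fold in the other body part, and TR4854|c2_g2 had 1.68-fold and 1.51-fold, both abdomen-female. Just outside it in the same direction, TR55530|c0_g1 was at 1.4998-fold and 3.06-fold, and TR6754|c0_g1 had 2.01-fold and 1.49-fold. In the abdomen-male direction TR73921|c1_g1, with 1.502-fold in the head and thorax, and TR59712|c1_g1, with 1.80-fold and 1.51-fold, were just inside. TR71505|c0_g3 was just outside at 1.53-fold and 1.4997-fold, and TR62926|c0_g2 at 1.498-fold and 1.501-fold. The directions were the same in virgin medians alone in 44 abdomen-female and 32 abdomen-male genes and in mated medians alone in 45 and 35. These medians come from the libraries that the choice used, so this was largely fixed by it and nothing is read from it.

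The same 4 medians also give the difference between body parts within each sex, described here without a test. The log2 ratio of abdomen over head and thorax of the median CPM had a median over the 48 abdomen-female genes of 0.53 in females and -1.67 in males, against 0.54 and 0.00 over the 8894 genes at the level minimum. Of these genes, 27 were higher in the abdomen in females and in the head and thorax in males, 17 were higher in the head and thorax in both sexes and 4 in the abdomen in both. Among the 8894 genes these shares were 26.2%, 23.9% and 42.0%, against 56.25%, 35.4% and 8.33% of the 48. Over the 38 abdomen-male genes the median log2 ratio was -0.25 in females and 1.63 in males. Here 20 were higher in the head and thorax in females and in the abdomen in males, 15 in the abdomen in both sexes and 3 in the head and thorax in both, which is 52.6%, 39.5% and 7.89%, against 7.65%, 42.0% and 23.9% of the 8894. The counts depend on the scaling: with TMM 22, 22 and 4 of the abdomen-female and 21, 14 and 3 of the abdomen-male genes fell in these classes, and with DESeq2 size factors 20, 23 and 5, and 23, 12 and 3. The female medians then were 0.32 and 0.16 in the first set and -0.46 and -0.62 in the second. Both sexes passed 1.5-fold in opposite directions in 15 abdomen-female and 6 abdomen-male genes. The choice by sex fixes that males lie below females in the first set and above them in the second, so these shares are no independent result.

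**Figure D3:**
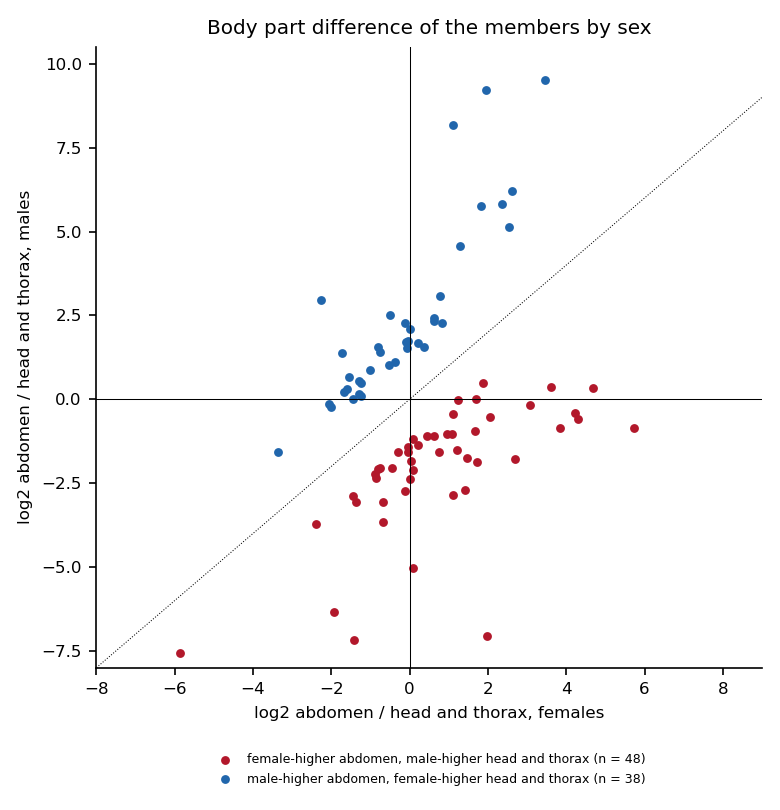
Log2 ratio of abdomen over head and thorax of the median CPM in females (horizontal) and in males (vertical) for each of the 86 members. All abdomen-female genes (red) lie below and all abdomen-male genes (blue) above the dotted line of equal ratios, as the choice requires, and 27 red and 20 blue points lie in the quadrants where the sexes have opposite signs.

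The average difference between body parts, over both sexes and mating states, was not a criterion of the choice, although the minimum level in both body parts limits how large it can be in a member. It was tested with edgeR's quasi-likelihood test over 15558 genes, where 41.7% were higher in the abdomen and 28.5% higher in the head and thorax at a Benjamini-Hochberg adjusted p of 0.05 or less, with a median log2 ratio of 0.24. Among the 8894 genes held to the same minimum as the members, 51.3% were higher in the abdomen and 32.9% higher in the head and thorax, with a median of 0.18. Of the 48 abdomen-female genes, 12 were higher in the abdomen, or 25.0%, 28 were higher in the head and thorax, or 58.3%, and 8 did not pass, with a median log2 ratio of -0.85. Of the 38 abdomen-male genes, 20 were higher in the abdomen, or 52.6%, 10 in the head and thorax, or 26.3%, and 8 did not pass, with a median of 0.61. With library size alone in place of TMM the median over all genes moved up by more than 0.1, to 0.35. Of the named abdomen-female genes, TR6136|c0_g2 (log2 ratio -6.46 ± 0.31 SE), TR37721|c0_g1 (-3.21 ± 0.07) and TR24091|c1_g1 (-2.39 ± 0.06) were lower in the abdomen, with adjusted p = 5.4e-13, 6.1e-18 and 1.1e-17. TR18174|c1_g1 (2.23 ± 0.18), TR35808|c0_g1 (1.59 ± 0.24) and TR74758|c0_g1 (1.55 ± 0.19) were higher, with adjusted p = 1.0e-09, 6.1e-06 and 4.9e-07.

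Among the abdomen-male genes, TR14521|c0_g1 was higher in the abdomen by 4.52 ± 0.52 (log2, SE; adjusted p = 1.9e-07), TR73921|c1_g1 by 3.84 ± 0.37 (1.9e-08) and TR53577|c3_g7 by 3.79 ± 0.21 (6.2e-12). TR28135|c0_g3 and TR60377|c0_g1 were lower in the abdomen, at -1.29 ± 0.15 and -1.29 ± 0.10 (adjusted p = 3.2e-07 and 9.0e-10), as was TR3553|c0_g1, at -0.84 ± 0.05 (1.6e-11). TR7541|c0_g1, which was high in male abdomens and female heads and thoraces, averaged out at 0.23 ± 0.12 and did not pass, with adjusted p = 0.10. TR71139|c9_g4, named here for its reversal, had the largest average of the set, at 6.01 ± 0.17 (2.2e-16).

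Mating was not used in the choice, because virgin and mated libraries were pooled in it. Calls for mating were mainly in the female abdomen, among members as among all genes. There the test over 14563 genes called 8.18% of genes up and 6.28% down after mating. In this and the later tests of mating and of its interaction with sex, the genes tested include genes below the members' minimum level. The share at that level is not given here, so nothing is read from a difference between members and all genes. Of the 48 abdomen-female genes 6 rose and 7 fell, 12.5% and 14.6%, and of the 38 abdomen-male genes 5 rose and 2 fell, 13.2% and 5.26%. The median log2 change was -0.02 and 0.09 in the 2 sets and 0.00 over all genes. With library size alone, which moved the median over all genes to -0.11, 3 abdomen-female genes rose and 8 fell, and 2 abdomen-male genes rose and 8 fell. Without virgin female replicate 2, which differed most from its replicates, 7 abdomen-female and 4 abdomen-male genes were called in place of 13 and 7. The counts were the same without mated female replicate 2, 8 and 3 without mated female replicate 1, and 8 and 4 without virgin female replicate 3. The share of all genes called in these alternatives is not given here. With TMM, 10 of the 20 calls held in every one of the 17 alternative fits, among them those with each library left out.

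TR1101|c2_g13, an abdomen-female gene, fell after mating in female abdomens. Its 3 virgin female values were 29.85, 25.8 and 24.3 CPM and its mated values 13.8, 12.03 and 13.25 CPM, so every mated library lay below every virgin one, at a log2 change of -0.91 ± 0.13 (SE; edgeR, adjusted p = 0.0023). Male abdomens stayed between 5.615 and 7.90 CPM in both states. TR18174|c1_g1 rose, from 369, 277 and 333 CPM in virgin to 464, 553 and 490 CPM in mated female abdomens, a log2 change of 0.75 ± 0.14 (adjusted p = 0.0071) with no overlap. TR70155|c0_g1 also rose, from 28.5, 25.1 and 23.8 CPM to 33.5, 37.9 and 35.2 CPM (log2 0.59 ± 0.11, adjusted p = 0.0060), again with no overlap. The other abdomen-female calls that held throughout were TR74758|c0_g1, which rose by 0.61 ± 0.12 (adjusted p = 0.0077), and TR52543|c0_g4, TR45359|c8_g6 and TR57730|c0_g2, at log2 changes of -0.35, -0.31 and -0.37.

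Of the abdomen-male genes, TR34246|c0_g1 rose in mated female abdomens, from 32.8, 31.4 and 31.6 CPM in virgin to 40.1, 40.9 and 40.7 CPM in mated libraries, a log2 change of 0.47 ± 0.06 (adjusted p = 0.0013). TR42621|c4_g1 fell, from 47.7, 43.6 and 46.9 CPM to 28.7, 33.5 and 25.5 CPM, a log2 change of -0.53 ± 0.09 (adjusted p = 0.0045). The mated and virgin female libraries overlapped in neither gene. TR28135|c0_g3 rose at a low level, from 3.86, 3.53 and 1.98 CPM to 7.53, 8.40 and 5.56 CPM, a log2 change of 1.33 ± 0.28 (adjusted p = 0.010), which brought mated females to the level of males, at 5.30 to 9.34 CPM.

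The other 10 calls in the female abdomen were lost in at least 1 of the 17 alternative fits. A fit without a library also has fewer replicates, so a lost call need not mean that this library carried it. TR1604|c0_g2 (log2 change 0.77, adjusted p = 0.035) and TR36345|c1_g1 (0.56, 0.031) no longer passed without any 1 of the 6 female abdomen libraries, at adjusted p = 0.082 to 0.13 and 0.063 to 0.10. TR24149|c0_g3 (0.78, 0.046) and TR70838|c0_g3 (-0.24, 0.042) no longer passed without any 1 of those 6 libraries and some male ones, 9 and 10 libraries in all, at up to 0.17 and 0.13. TR68298|c5_g5 (-0.40, 0.025) and TR36871|c0_g1 (-0.40, 0.022) were lost without mated female replicate 1 or 2 or virgin female replicate 2 or 3, at 0.072 to 0.090 and 0.052 to 0.089. TR73621|c0_g1 (-0.53, 0.017) was lost without mated or virgin female replicate 2, at 0.062 and 0.071. TR60377|c0_g1 (0.63, 0.030) was lost without mated female replicate 1 or 2 or any virgin female one, at 0.067 to 0.11. TR3553|c0_g1 (0.43, 0.026) was lost without mated female replicate 1 or 3 or virgin female replicate 1 or 2, at 0.062 to 0.11. TR59712|c0_g1 (0.43, 0.034) was lost without mated female replicate 1 or 2 or virgin female replicate 1 or 3, at 0.071 to 0.15. Library size alone ended the calls of TR1604|c0_g2 (0.058), TR24149|c0_g3 (0.060), TR3553|c0_g1 (0.078), TR36345|c1_g1 (0.052), TR59712|c0_g1 (0.083) and TR60377|c0_g1 (0.064). The replicate number as a block ended those of TR1604|c0_g2 (0.061), TR24149|c0_g3 (0.066), TR70838|c0_g3 (0.0505) and TR59712|c0_g1 (0.052). Without a filter on low counts TR1604|c0_g2 (0.060), TR24149|c0_g3 (0.062), TR70838|c0_g3 (0.069) and TR59712|c0_g1 (0.053) were lost, and with DESeq2 size factors TR24149|c0_g3 and TR59712|c0_g1 (both 0.053).

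**Figure D4:**
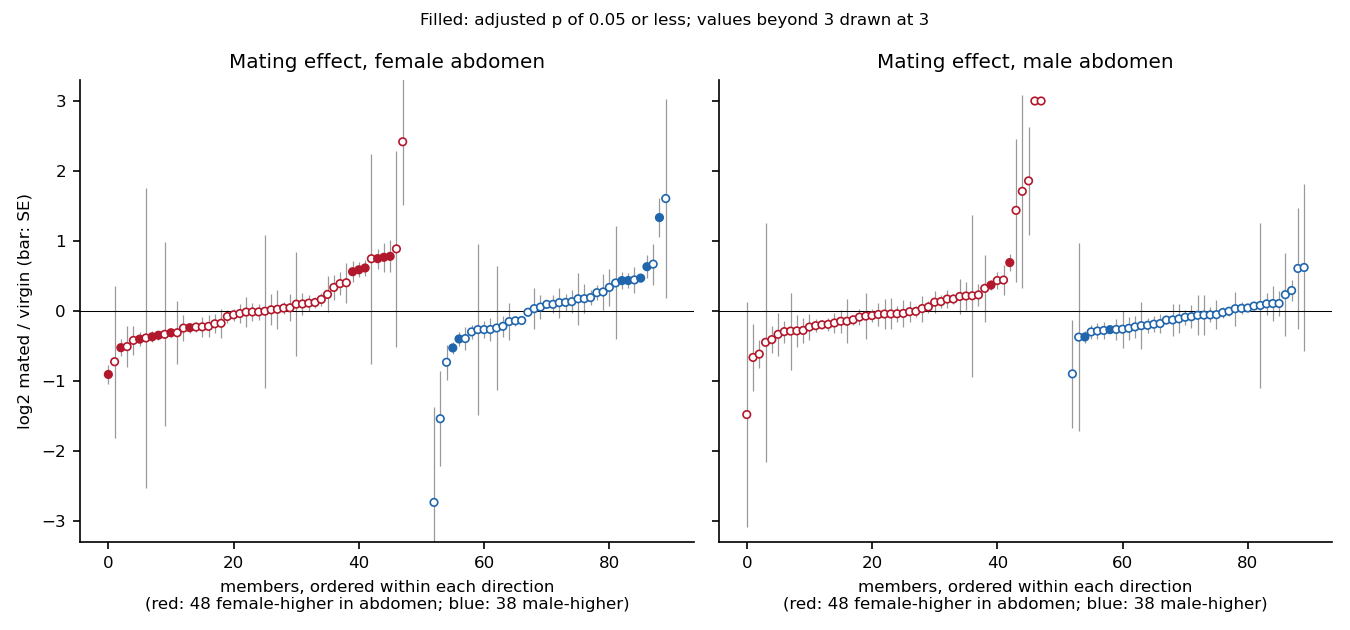
Log2 change from virgin to mated of each member in female abdomens (left) and male abdomens (right), ordered by size within the 48 abdomen-female (red) and 38 abdomen-male (blue) genes, with the SE as a bar. Filled points have an adjusted p of 0.05 or less, 20 in females and 4 in males, and values beyond 3 are drawn at 3.

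In the female head and thorax the test over 13051 genes called 0.621% higher and 0.314% lower after mating, and of the members TR57730|c0_g2 and TR52543|c0_g4 fell and TR28326|c5_g4 rose. TR57730|c0_g2, abdomen-female, had 131, 111 and 149.5 CPM in virgin and 81.5, 79.5 and 79.5 CPM in mated female heads and thoraces, a log2 change of -0.63 ± 0.11 (SE; adjusted p = 0.026). TR52543|c0_g4, also abdomen-female, had 68.65, 59.45 and 71.9 CPM and then 45.9, 49.7 and 47.1 CPM, a log2 change of -0.41 ± 0.08 (adjusted p = 0.045). Mated and virgin libraries did not overlap in either gene, and both genes also fell in female abdomens. TR28326|c5_g4, abdomen-male, had 45.7, 61.7 and 60.4 CPM and then 69.5, 72.2 and 81.1 CPM, a log2 change of 0.49 ± 0.09 (adjusted p = 0.041). Without any 1 mated female head and thorax library, or without virgin female replicate 1 or 3, none of the 3 passed, at adjusted p = 0.058 to 0.12 for TR57730|c0_g2, and up to 0.18 for TR52543|c0_g4 and 0.17 for TR28326|c5_g4. The latter pair was also lost on leaving out 5 and 4 of the male libraries, each alone. With the replicate number as a block none passed, at 0.079, 0.115 and 0.092, and without both libraries that stood apart TR57730|c0_g2 passed at 0.034 and the other two did not, at 0.069 and 0.10. Without a filter on low counts TR52543|c0_g4 (0.073) and TR28326|c5_g4 (0.055) were lost, the latter also with DESeq2 size factors (0.055) and library size alone (0.12).

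In the male abdomen 1.48% of the genes rose and 1.30% fell after mating, and 4 members were called. TR4854|c2_g2, abdomen-female, rose from 68.9, 69.1 and 70.1 CPM in virgin to 143, 96.9 and 103 CPM in mated male abdomens, a log2 change of 0.69 ± 0.12 (SE; adjusted p = 0.014), and 1 mated library reached the female level of 136 to 148 CPM. TR70838|c0_g3, abdomen-female, rose from 23.3, 24.6 and 23.4 CPM to 34.7, 28.3 and 31.1 CPM (log2 0.37 ± 0.07, adjusted p = 0.026). Of the abdomen-male genes, TR24407|c0_g1 fell from 376, 413 and 394 CPM to 329, 336 and 340 CPM (log2 -0.27 ± 0.05, adjusted p = 0.025). TR36871|c0_g1 fell from 148, 118 and 135 CPM to 105, 106 and 107 CPM (log2 -0.37 ± 0.09, adjusted p = 0.048), and it fell in female abdomens too. In all 4 genes mated and virgin male libraries did not overlap, and none of the calls held in every alternative. TR4854|c2_g2 was lost without virgin male replicate 2 or 3, at adjusted p = 0.054 and 0.053, and TR70838|c0_g3 without any virgin male replicate or mated male replicate 1 or 3, at 0.062 to 0.093. TR24407|c0_g1 was lost without any 1 of the 6 male abdomen libraries, at 0.055 to 0.086, and TR36871|c0_g1 without any of 11 of the 12 abdomen libraries, at 0.052 to 0.14. Library size alone and the replicate block also ended the calls of TR24407|c0_g1 (0.071 and 0.052) and TR36871|c0_g1 (0.058 and 0.055), and the latter was lost without a filter on low counts (0.063).

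In the male head and thorax 0.0690% of the genes rose and 0.00766% fell after mating, and edgeR called 0 of the 86 members. An unadjusted edgeR p under 0.05 was found in 6 of the 48 abdomen-female and 4 of the 38 abdomen-male genes, against 1257 of all 13051 genes tested. DESeq2 called 0 and 1, for which the share of all genes is not given here.

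The response to mating differed between the sexes in the abdomen in 12 members by a test of the difference itself, the female minus the male log2 change, for which 5.23% of all genes were higher and 3.06% lower. Of the abdomen-female genes 2 were higher and 4 lower, 4.17% and 8.33%, and of the abdomen-male genes 5 were higher and 1 lower, 13.2% and 2.63%. In 9 of the 12, 4 abdomen-female and 5 abdomen-male, the sexes lay closer together in mated than in virgin abdomens, against 71.3% of the 1206 genes called. With library size alone the median over all genes moved from 0.07 to -0.08, and 1 abdomen-female gene was higher and 7 lower, and 2 abdomen-male genes higher and 2 lower. DESeq2 called 11 abdomen-female and 8 abdomen-male genes, and without virgin female replicate 2 edgeR called 3 and 4. The share of all genes called in these alternatives is not given here, so nothing is read from their counts about the members.

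The calls for TR70838|c0_g3, TR18174|c1_g1 and TR34246|c0_g1 held in all 17 alternatives. TR70838|c0_g3 fell in females, from 49.2, 47.3 and 45.6 CPM in virgin to 37.4, 35.7 and 37.3 CPM in mated abdomens, and rose in males as given above, a difference of -0.61 ± 0.10 (log2, SE; adjusted p = 0.0071). TR18174|c1_g1 rose in females and had 50.6, 70.0 and 45.0 CPM in virgin and 44.7, 45.3 and 47.99 CPM in mated male abdomens, which overlapped, a difference of 1.04 ± 0.21 (adjusted p = 0.015). TR34246|c0_g1 rose in females and had 61.3, 62.6 and 66.7 CPM in virgin and 54.6, 62.35 and 61.0 CPM in mated males, a difference of 0.60 ± 0.08 (adjusted p = 0.0040). In TR70838|c0_g3 and TR34246|c0_g1 the sexes were closer in mated beetles, and in TR18174|c1_g1 they were further apart.

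In the head and thorax the same test called 0.0613% of genes higher and 0.0460% lower and 0 of the 86 members. An unadjusted edgeR p under 0.05 was found in 10 of the 48 abdomen-female and 2 of the 38 abdomen-male genes, against 1226 of all 13051 genes tested. DESeq2 called 4 and 0, for which the share of all genes is not given here.

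Several abdomen-male genes were made of different transcripts in the 2 sexes. The transcript counts of 26 abdomen-female and 19 abdomen-male genes with more than 1 transcript were compared, as a description without a test. The most abundant transcript differed between the sexes in the abdomen in 7 of the 26 and 9 of the 19, against 17.7% of all genes compared, and in the head and thorax in 5 of the 26 and 7 of the 19, against 13.3%. Between body parts it differed in 5 of the 26 and 7 of the 19, against 14.0%, and it held at least 60% of the gene's counts in each body part in 1 and 2 of them, against 1.12%.

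In TR71139|c9_g4 transcript i1 was the female and i2 the male form. Transcript i1 ran from 41.0 through 54.3 to 58.2 CPM in female and from 1.15 through 4.85 to 7.30 CPM in male abdomens, and from 3.70 through 5.35 to 15.9 CPM in female heads and thoraces, while it was at 0 in all 6 male head and thorax libraries. Transcript i2 ran from 239 through 272 to 292 CPM in male and from 0 through 3.47 to 9.28 CPM in female abdomens. In the head and thorax it was at 0 in all 6 female libraries and between 0.254 and 1.10 CPM in males. The gene had only 2 to 9 counts in each male head and thorax library, so its division between transcripts there is uncertain. The gene's reversal was thus the sum of a male transcript found almost only in the abdomen and a female transcript that was also present in the head and thorax. In TR42621|c4_g1 transcript i4 ran from 253 through 263 to 277 CPM in male abdomens and reached at most 2.25 CPM in female ones. Transcript i1 ran from 23.3 through 37.3 to 47.7 CPM in female abdomens and from 2.39 through 5.51 to 8.14 CPM in female heads and thoraces, and was at 0 in all 6 male abdomens and at most 0.252 CPM in male heads and thoraces. The fall of the gene in mated female abdomens was in i1, which had 47.7, 42.5 and 46.1 CPM in virgin and 26.5, 32.2 and 23.3 CPM in mated libraries.

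**Figure D5:**
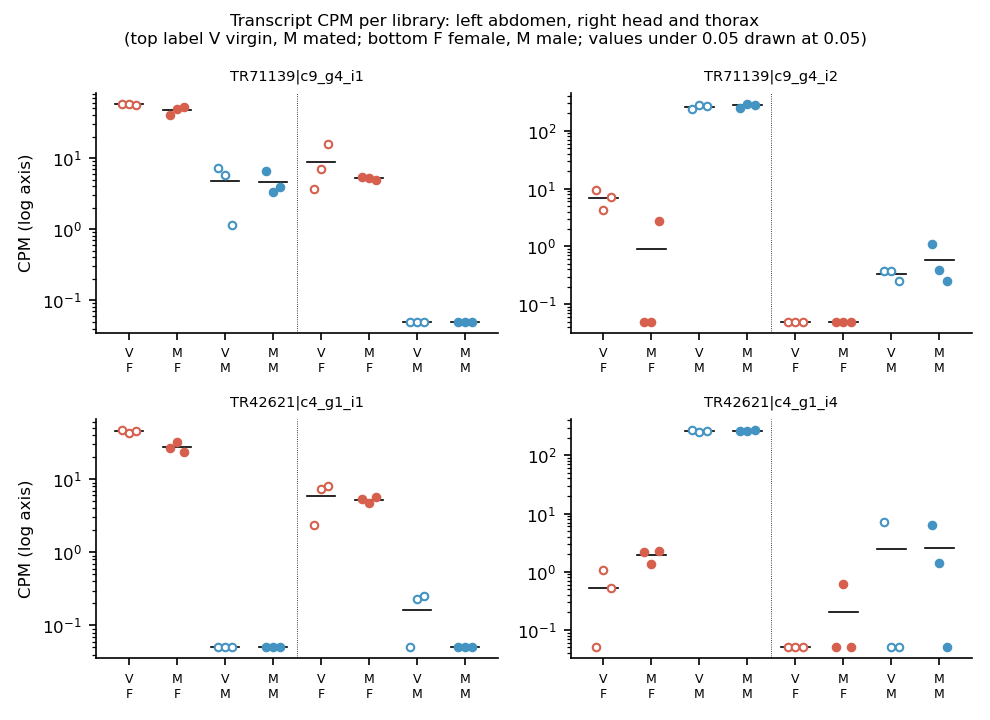
CPM of 2 transcripts each of TR71139|c9_g4 and TR42621|c4_g1 in every library on a log axis, with abdomens left and heads and thoraces right of the dotted line, open points virgin, filled points mated, red points females, blue points males and bars the mean of 3 libraries. Values under 0.05, zeros included, are drawn at 0.05. The left panels hold the transcripts found in females in both body parts and the right panels those found mainly in male abdomens.

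Other members had transcripts that differed in body part. In TR52543|c0_g4, i2 had medians of 41.5 CPM in female and 15.3 CPM in male abdomens and of 15.2 and 13.4 CPM in female and male heads and thoraces. Its i4 had 14.5, 17.4, 33.5 and 63.2 CPM in the same order, and its i1 had 0.263, 2.14, 7.58 and 15.99 CPM. Of these transcripts i2 was the higher in females in the abdomen, and i4 and i1 were higher in males in the head and thorax. In TR54963|c7_g7, also abdomen-female, i12 had 51.6, 0.295, 23.1 and 45.4 CPM and i3 had 21.4, 5.27, 46.4 and 103.99 CPM, so both had the gene's reversal in their medians. In TR72121|c2_g14, abdomen-female, i1 had 4.02, 3.40, 0.190 and 1.298 CPM, while i3 had medians of 0 in the abdomens of both sexes and of 7.79 CPM in female and 15.6 CPM in male heads and thoraces. The next pair of genes, both abdomen-male, was chosen after the values were seen. In TR4570|c0_g1, i3 had a median of 19.4 CPM in male and 3.36 CPM in female abdomens and of 0 in heads and thoraces of either sex, whereas i1 had 1.97 CPM in male and 6.24 CPM in female abdomens and 13.7 CPM in female and 8.91 CPM in male heads and thoraces. In TR8970|c2_g1, i3 had 12.1 CPM in male abdomens and under 0.5 CPM in the other 3 medians. How the counting divided reads between transcripts is not given in the sources used here, and the transcript counts of 9 abdomen-female and 3 abdomen-male genes did not sum to the gene count within 0.5.

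Many members shared most of their ID with another gene. What the parts of an ID mean is not given in the sources used here. Another gene with the same ID up to the gene number was listed for 26 of the 48 abdomen-female genes, or 54.2%, and 23 of the 38 abdomen-male genes, or 60.5%, against 35.4% of the genes at the level minimum. TR7035|c2_g2 and TR7035|c2_g4 were both abdomen-female, and TR25791|c0_g1 and TR25791|c0_g2 both abdomen-male. In the latter pair the medians were 5.19 and 60.9 CPM in male abdomens, 2.98 and 33.2 CPM in female abdomens, 9.53 and 81.5 CPM in female and 4.44 and 41.6 CPM in male heads and thoraces. TR59712|c0_g1 and TR59712|c1_g1, abdomen-male genes that share the TR number only, had 25.4 and 47.1 CPM in male and 16.1 and 26.1 CPM in female abdomens, and 37.8 and 63.5 CPM in female and 23.6 and 42.1 CPM in male heads and thoraces. In both of these pairs the order of the 4 medians was the same in either gene. In the TR7035 pair it was not: TR7035|c2_g4 had its highest median in female abdomens, at 56.9 CPM against 27.3 CPM in male heads and thoraces, and TR7035|c2_g2 its highest in male heads and thoraces, at 11.96 CPM against 6.13 CPM in female abdomens. Where such genes are near-identical, reads can be divided between them in counting, so these pairs may not be independent, and their single values are uncertain. Whether they are near-identical was not tested.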

How the data were processed

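RNA was sequenced from 24 libraries on 2 lanes each. The authors deposited estimated counts (expected counts) without normalisation for 29812 genes and 58250 transcripts, and 14.1% of the gene values are not whole. The tools named are Bowtie 0.12.6, Trimmomatic 0.3, cutadapt 1.2.1 and FastQC 0.11.2, per the submitters' processing notes. The mRNA kit was stranded, per the labels' protocols. How strand was used, the reference and the counting program were not given in the sources used here, so values of overlapping, antisense or near-identical genes are uncertain.

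CPM for the choice of members used unrounded counts and column totals, and folds used a floor of 0.3 CPM, about 3 counts. Sex-limited genes, used to compare libraries, had at least 5 CPM in the abdomen of one sex and at most one part in 16 of that in the other. The members and all lists were chosen with earlier results of these data known, and what the choice used is described without a test.

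Counts rounded to whole numbers went into edgeR 4.0.16 under R 4.3.3 (TMM, filterByExpr by group, robust quasi-likelihood test, Benjamini-Hochberg adjustment over all genes tested, threshold 0.05). Each body part had its own fit over its 12 libraries, with 1 mean per group, and the body part comparison used all 24. The script was tested on simulated data. Alternatives were DESeq2 1.42.0, its size factors or library size alone in edgeR, no filter on low counts, the replicate number as a block and each library left out, and for the choice of members other scalings, limits, means and mating states.

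The text names, in each direction, the 6 members with the largest smaller fold, the 4 with the highest median CPM, those just inside and outside the limit, up to 3 members per tested comparison and direction with the largest change and at least 3 counts in every library, and up to 4 whose most abundant transcript differs between body parts. Further members were named after their values were seen, among them every call for mating and a pair with transcripts that differ between body parts. The comparison of transcripts between the sexes was also added then. Replicates differed by more than sampling noise, the chi-square per degree of freedom between replicates running from 5.81 to 32.1.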

Additional observations from a re-analysis of the deposited data

Results flagged for a closer look

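In 12 members the change after mating in the abdomen differed between the sexes by the interaction test of edgeR, given here as the female minus the male log2 change with mean CPM ± SD over 3 libraries. No library was left out of these means, although virgin female abdomen replicate 2, part of each virgin female mean, differed most from its replicates. Calls that ended on leaving out a library are given with the adjusted p reached then.

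Among the abdomen-female genes, TR18174|c1_g1 (1.04) went from 326 ± 46.3 to 502 ± 45.8 CPM in females and from 55.2 ± 13.1 to 46.0 ± 1.75 CPM in males, and TR70155|c0_g1 (0.68) from 25.8 ± 2.43 to 35.5 ± 2.20 CPM in females and from 20.3 ± 2.06 to 19.5 ± 2.85 CPM in males. TR1101|c2_g13 (-0.90) went from 26.6 ± 2.88 to 13.02 ± 0.891 CPM in females and from 6.96 ± 0.529 to 7.06 ± 1.26 CPM in males. TR73621|c0_g1 (-0.69) went from 16.6 ± 1.05 to 10.6 ± 1.36 CPM in females and from 7.22 ± 0.906 to 8.29 ± 0.199 CPM in males. TR70838|c0_g3 (-0.61) went from 47.4 ± 1.77 to 36.8 ± 0.947 CPM in females and from 23.8 ± 0.755 to 31.4 ± 3.21 CPM in males. TR7212|c0_g1 (-0.40) went from 188 ± 6.19 to 147 ± 7.30 CPM in females and from 104 ± 5.01 to 119.8 ± 12.3 CPM in males.

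Among the abdomen-male genes, TR28135|c0_g3 (1.60) went from 3.13 ± 1.00 to 7.16 ± 1.46 CPM in females and from 8.54 ± 0.982 to 7.28 ± 1.72 CPM in males, and TR60377|c0_g1 (0.88) from 5.80 ± 0.262 to 8.26 ± 1.203 CPM in females and from 11.9 ± 1.74 to 10.2 ± 1.94 CPM in males. TR59712|c0_g1 (0.62) went from 14.5 ± 1.27 to 17.9 ± 1.87 CPM in females and from 26.6 ± 1.55 to 23.8 ± 2.69 CPM in males, and TR59712|c1_g1 (0.56) from 25.2 ± 1.66 to 27.6 ± 3.48 CPM in females and from 48.99 ± 0.376 to 40.7 ± 4.28 CPM in males. TR34246|c0_g1 (0.60) went from 31.9 ± 0.762 to 40.6 ± 0.399 CPM in females and from 63.6 ± 2.79 to 59.3 ± 4.12 CPM in males. TR42621|c4_g1 (-0.51) went from 46.1 ± 2.18 to 29.2 ± 4.01 CPM in females and from 265 ± 12.7 to 266 ± 4.66 CPM in males.

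TR18174|c1_g1, TR70838|c0_g3 and TR34246|c0_g1 passed in each of the 17 alternative fits. TR1101|c2_g13 was lost without mated female replicate 2 or mated male replicate 3 (0.054 and 0.052). TR70155|c0_g1 was lost without mated female replicate 2, mated male replicate 1 or 3, virgin female replicate 2 or 3 or virgin male replicate 3 (0.053 to 0.064). TR7212|c0_g1 was lost without mated or virgin female replicate 2 or 3, mated male replicate 1 or virgin male replicate 1 or 3 (0.050 to 0.088). TR28135|c0_g3 was lost without mated female replicate 1 or 2, mated male replicate 3 or virgin male replicate 1 or 3 (0.058 to 0.072). TR42621|c4_g1 was lost without mated female replicate 1 or 3, mated male replicate 3, virgin female replicate 3 or virgin male replicate 2 or 3 (0.051 to 0.070). TR73621|c0_g1 was lost without each library except mated female 1, virgin female 1 and virgin male 2 (0.058 to 0.088), TR60377|c0_g1 without each except mated female 3, mated male 1 and virgin male 1 (0.070 to 0.14), TR59712|c0_g1 without each except mated female 3, virgin female 2 and virgin male 3 (0.052 to 0.18), and TR59712|c1_g1 without each except mated female 3 and mated male 1 (0.060 to 0.20). Settings other than a left-out library also ended calls. Library size alone ended those of TR70155|c0_g1 (0.081), TR59712|c0_g1 (0.099), TR59712|c1_g1 (0.11) and TR60377|c0_g1 (0.096). DESeq2 size factors ended those of TR59712|c0_g1 (0.063), TR59712|c1_g1 (0.057) and TR60377|c0_g1 (0.055). Without a filter on low counts TR7212|c0_g1 (0.052), TR73621|c0_g1 (0.072), TR59712|c0_g1 (0.061) and TR60377|c0_g1 (0.068) were lost, and with the replicate number as a block TR73621|c0_g1 (0.068), TR59712|c0_g1 (0.063), TR59712|c1_g1 (0.061) and TR60377|c0_g1 (0.067) were lost.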

How the results depend on the processing

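The number of members, 48 abdomen-female and 38 abdomen-male genes, depended on the limits: 12 and 8 at a 2-fold limit, 19 and 13 at 20 CPM, 47 and 34 with TMM (29 and 25 of them members), and 30 and 57 with DESeq2 size factors (26 and 28). It was 56 and 59 in virgin libraries alone, 79 and 58 in mated ones alone, 37 and 35 by means, and 43 to 54 and 35 to 43 with a library left out. Without the pair of head and thorax libraries that stood apart, an alternative chosen after seeing the data, it was 64 and 47.

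Of the named members' sex differences under the alternatives, 476 values moved by less than the spread of the libraries, 94 moved further and 6 changed sign. The spread was the root of the summed variances of log2 CPM in the 6 female and the 6 male libraries. It pools virgin and mated libraries and is wide in members that varied much, so a value within it need not be stable. By means the changes of sign were TR6136|c0_g2 in the abdomen (-0.39) and TR14521|c0_g1 (-1.51) and TR73921|c1_g1 (-1.15) in the head and thorax. In virgin libraries they were TR71183|c0_g1 (-0.52), TR73921|c1_g1 (-0.41) and TR24149|c0_g3 (0.29) in the head and thorax.

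Body part calls were 38 to 42 and 30 to 31 with a library left out, against 40 and 30. Calls for mating in the female abdomen, 13 and 7, were 7 to 14 and 3 to 8 with a library left out and 14 and 11 with DESeq2. In the female head and thorax, 2 and 1 became 0 to 2 and 0 to 1 with a library left out, 7 and 2 with DESeq2, 3 and 0 with DESeq2 size factors, 5 and 0 with library size alone, 1 and 0 without a filter, and 2 and 0 without the pair that stood apart. In the male abdomen, 2 and 2 became 0 to 2 and 0 to 1, 6 and 3 with DESeq2, 2 and 0 with library size alone and 2 and 1 without a filter. In the male head and thorax, 0 and 0 stayed 0 with a library left out and were 0 and 1 with DESeq2. Interaction calls in the abdomen, 6 and 6, became 2 to 7 and 1 to 6, 11 and 8 with DESeq2 and 8 and 3 with DESeq2 size factors. In the head and thorax, 0 and 0 stayed 0 with a library left out, and the first was 4 with DESeq2 and 1 with library size alone. For all these alternatives the share of all genes called is not given here, so nothing is read from the counts about the members. A most abundant transcript that differed between body parts, in 5 and 7 members, was found in 1 and 2 with at least 60% in each. Of the tested changes of named members, 814 of the alternative values kept the call and 210 lost it, and none changed sign. All 210 were in the tests of mating and of its interaction with sex. The members chosen for the body part test kept their calls in every alternative. The causes were not tested.

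Replicate numbers recur in every group. Of 12 mated and virgin pairs with the same number, 3 had deviations correlated above 0.1, the range being -0.058 to 0.19. Of the mated libraries, 3 correlated best with their own number, so the numbers were not taken to pair mated with virgin libraries. Whether they pair abdomens with heads and thoraces was not examined, and the body part test treated these libraries as unpaired. With the replicate number as a block, calls were 11 and 7 in the female abdomen, 0 and 0 in the female head and thorax, 2 and 0 in the male abdomen, and 6 and 4 for the interaction in the abdomen. The share of all genes called with the block is not given here.

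Members with a median near 5 CPM rest on 39.0 to 50.9 counts in a library, depending on its total, and 6 abdomen-female and 8 abdomen-male genes have a library at 0, for which the share of all genes is not given here.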
